A study of Arabidopsis thaliana with 2 samples.

Results

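Abscisic acid (ABA) signalling genes were examined in whole Arabidopsis thaliana seedlings for OST1 (also called SnRK2.6) and the 9 clade A protein phosphatase 2C genes ABI1, ABI2, HAB1, HAB2, HAI1, HAI2, HAI3, PP2CA and AHG1. The 10 genes were taken by locus identifier from the 26743 features of the deposited table, and all 10 were present. The seedlings were of the Col-0 background, either jmj17-1, mutant in the histone H3 lysine demethylase gene JMJ17, or wild type (WT). Both groups were 7 days old and had been grown on medium lacking sucrose with 16 h of light and 8 h of dark, and no ABA or drought treatment is named. There was 1 library per genotype. The difference therefore has no replicate check, no p-value was calculated, and every value describes these 2 libraries.

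OST1 is a protein kinase best known from guard cells, where it drives stomatal closure in response to ABA. Clade A phosphatases bind and dephosphorylate OST1 and its relatives SnRK2.2 and SnRK2.3 and so hold them inactive. When ABA binds its PYR/PYL receptors, the receptors block the phosphatases, and the freed kinases phosphorylate ion channels and bZIP transcription factors. Many clade A genes are themselves induced by ABA, which makes them a feedback brake on the pathway. Earlier published work on JMJ17 in dehydration stress described OST1 as a gene on whose chromatin this demethylase acts.

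Of the 10 genes PP2CA had the log2 ratio furthest from 0 between the libraries on the scale used below, and the 300 bases before its annotated start are shown with those of HAI2, which held as many copies of the same motif, and of OST1, which held none. The sequences are from the RefSeq TAIR10.1 genome, 5′ to 3′ on the strand of the gene, with capitals marking ACGTG or its reverse complement CACGT, the core of the ABA-responsive element bound by ABF-type bZIP factors.
PP2CA, chr3:3585851-3586150, minus strand: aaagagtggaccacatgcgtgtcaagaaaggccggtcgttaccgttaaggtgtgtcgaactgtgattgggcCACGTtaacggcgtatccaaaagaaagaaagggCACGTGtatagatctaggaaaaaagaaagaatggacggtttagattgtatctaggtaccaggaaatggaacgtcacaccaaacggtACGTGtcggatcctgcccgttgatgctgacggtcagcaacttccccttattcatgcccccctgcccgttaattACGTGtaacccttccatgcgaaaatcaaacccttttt
HAI2, chr1:2282829-2283128, minus strand: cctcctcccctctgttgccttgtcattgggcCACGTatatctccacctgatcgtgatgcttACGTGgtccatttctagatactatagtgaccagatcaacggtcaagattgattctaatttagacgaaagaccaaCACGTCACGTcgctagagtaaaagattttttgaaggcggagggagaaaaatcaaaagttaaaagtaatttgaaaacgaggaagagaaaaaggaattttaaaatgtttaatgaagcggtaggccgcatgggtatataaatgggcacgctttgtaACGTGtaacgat
OST1, chr4:16271445-16271744, plus strand: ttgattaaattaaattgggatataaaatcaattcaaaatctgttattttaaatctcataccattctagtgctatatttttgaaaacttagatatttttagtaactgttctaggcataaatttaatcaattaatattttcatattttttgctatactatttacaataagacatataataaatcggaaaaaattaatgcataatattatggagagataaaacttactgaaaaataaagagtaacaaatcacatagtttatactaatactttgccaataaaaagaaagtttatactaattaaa
The motif ACGTG was searched on both strands. PP2CA and HAI2 held 5 matches each, HAB2, HAI3 and AHG1 held 2 each, ABI1 and HAB1 held 1 each, and OST1, ABI2 and HAI1 held 0. A G-box, CACGTG, counts as 2 of these overlapping matches, and it occurred in the windows of PP2CA and AHG1. In PP2CA the match nearest to the start began 37 bases before it. At least 1 match was present for 7 of the 10 genes, against 25.6% of the windows of 27443 nuclear protein-coding genes, and CACGTG was present for 2 of the 10, against 7.09%. A match is only a run of letters, and no binding was measured here.

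Levels are given as RPKM as calculated by the authors, that is, reads scaled to the length of the feature in kilobases and to a library of 1000000 reads. The read numbers behind them were recovered from the deposited values, which rested on 45403267 reads in jmj17-1 and 53890006 in WT. For each of the 10 genes a feature length existed at which both values were whole reads within 1e-05 of a read. The 95% intervals below are exact Poisson intervals of a level or exact Clopper-Pearson intervals of a fold, and they cover counting error only, not the spread between seedlings. JMJ17 itself stood at 2.9 RPKM in jmj17-1 and 5.48 RPKM in WT, from 619 and 1389 reads (fold 0.529, 0.480 to 0.582). The place of the mutation within the gene is not named in the labels, so this level does not show what is left of the intact transcript. Log2 ratios are of (RPKM + 1), jmj17-1 over WT, which understates differences of low genes, while folds are plain ratios of RPKM. Features with a mean of at least 1 RPKM over both libraries were analysed, and a size rule of 2-fold (an absolute log2 ratio of at least 1) was read with a second limit of 1.5-fold. A log2 ratio of -0.001 lay at percentile 39.3 of these features, so most of them lay above 0.

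**Figure D1:**
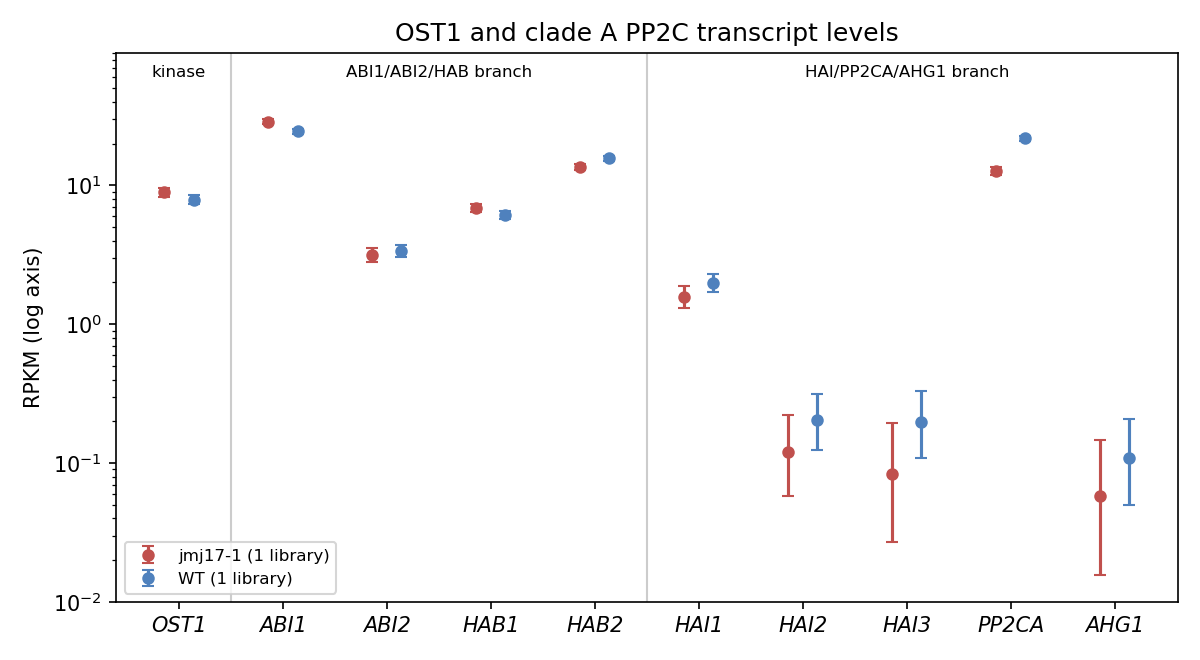
Level of each of the 10 genes in RPKM on a log axis, jmj17-1 in red and WT in blue, 1 library each, with exact Poisson 95% counting intervals. PP2CA at 12.7 RPKM in jmj17-1 and 21.9 RPKM in WT is the clearest gap, and HAI2, HAI3 and AHG1 lie under 0.3 RPKM in both libraries.

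OST1 was slightly more abundant in jmj17-1. The gene (AT4G33950) stood at 8.93 RPKM in jmj17-1, from 725 reads, and at 7.89 RPKM in WT, from 761 reads. The fold was 1.13 (95% counting interval 1.02 to 1.25) and the log2 ratio 0.16, at percentile 77.7 of all features analysed, so 4226 features had a higher ratio. OST1 did not reach either limit. Its gene lies at chr4:16271745-16274825 on the plus strand, has 9 or 10 exons in its annotated transcripts and overlaps no other annotated gene. The neighbouring genes AT4G33945, at 13.6 RPKM in both jmj17-1 and WT, and AT4G33960, at 11.7 RPKM in jmj17-1 and 13.2 in WT, did not reach either limit.

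Guard cells, where OST1 is best known, were followed by their markers. The 7 guard cell markers had a median log2 ratio of 0.01 and summed to 873 RPKM in jmj17-1 and 1057 in WT, mostly through the myrosinase genes TGG1 and TGG2. The lower sum in jmj17-1 thus follows these 2 genes and not the markers as a set. Of the 7 markers 4 had a log2 ratio above 0 and 3 below. TGG2 stood at 131 RPKM in jmj17-1 and 166 in WT, and MYB60, a transcription factor of guard cells, at 8.20 RPKM in jmj17-1 and 6.40 in WT. The part of guard cell number in the OST1 value was not tested.

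PP2CA (AT3G11410), a phosphatase also known as AHG3 that acts on OST1 and on ion channels and restrains ABA responses in germination, had the lowest log2 ratio of the 10 on the (RPKM + 1) scale. It stood at 12.7 RPKM in jmj17-1, from 1013 reads, and at 21.9 RPKM in WT, from 2069 reads. The fold was 0.581 (0.539 to 0.627) and the log2 ratio was -0.74. Of the 18969 features analysed 221 had a lower ratio, which places PP2CA at percentile 1.17. PP2CA was the 1 gene of the 10 past the 1.5-fold limit, in the lower direction, where 1.93% of all features lay (3.44% counting both directions). None of the 10 passed the 2-fold rule, which 0.97% of all features passed, 0.39% on the higher and 0.58% on the lower side. Only 7 of the 10 reached the mean of 1 RPKM that entry to these counts required. By the plain ratio and without that filter, 1 of the 10, HAI3, would pass 2-fold and 4 would pass 1.5-fold, PP2CA, HAI2, HAI3 and AHG1, the last 3 on at most 20 reads a library. The gene lies at chr3:3583782-3585850 on the minus strand with 4 exons and overlaps no annotated gene. Its right-hand neighbour AT3G11420, 5400 bases away, stood at 5.29 RPKM in jmj17-1 and 5.85 in WT.

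The other members of the same branch, HAI1, HAI2, HAI3 and AHG1, were at low levels, and each was lower in jmj17-1 by an amount within counting error. HAI1 (AT5G59220), a phosphatase gene strongly induced by ABA and in senescing leaves, stood at 1.58 RPKM in jmj17-1 and 1.99 in WT, from 118 and 177 reads (fold 0.791, 0.621 to 1.004). HAI2 (AT1G07430) stood at 0.121 RPKM in jmj17-1 and 0.204 in WT, from 10 and 20 reads (fold 0.593, 0.248 to 1.33). HAI3 (AT2G29380) stood at 0.0837 RPKM in jmj17-1 and 0.198 in WT, from 5 and 14 reads (fold 0.424, 0.119 to 1.25). These last genes are close relatives of HAI1 and are known for strong induction by ABA and drought, neither of which the labels name here. AHG1 (AT5G51760), which acts mainly in seeds and is unusual among clade A phosphatases in resisting inhibition by the receptors, stood at 0.0575 RPKM in jmj17-1 and 0.109 in WT, from 4 and 9 reads (fold 0.528, 0.119 to 1.89). The reads of HAI2, HAI3 and AHG1 added together, a sum chosen after the values were seen, were 19 in jmj17-1 and 43 in WT (fold 0.524, 0.289 to 0.919). At these depths the single genes cannot be separated between the libraries.

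Most seed markers were also lower in the jmj17-1 library. The seed storage genes CRU3, at 0.551 RPKM in jmj17-1 and 6.34 in WT, and CRA1, at 1.70 RPKM in jmj17-1 and 7.39 in WT, were the 2 seed markers analysed. CRU3 met the filter only through its WT level. The 8 seed markers in the table summed to 2.84 RPKM in jmj17-1 and 16.0 in WT, mostly through these 2 genes. The other 6 were under 1 RPKM in both libraries. Of the albumin genes, SESA1 was listed at 0 in jmj17-1 and 0.185 RPKM in WT. SESA4 lay the other way, at 0.0640 RPKM in jmj17-1 and 0.0539 in WT, from 2 reads each. The median log2 ratio of the seed markers was -1.94 with the filter and -0.44 without it. PP2CA and 10 of the 15 ABA-induced genes described below were lower in the same library, and the part of seed-derived RNA in that was not tested.

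In the ABI1/ABI2/HAB branch ABI1 and HAB1 were slightly higher in jmj17-1 and HAB2 slightly lower, all short of 1.5-fold. ABI1 (AT4G26080), the phosphatase gene whose dominant mutation made plants insensitive to ABA, was the most abundant member in both libraries. It stood at 28.8 RPKM in jmj17-1 and 24.5 in WT, from 2744 and 2770 reads (fold 1.18, 1.11 to 1.24). ABI1 had the highest log2 ratio of the 10, 0.23 at percentile 87.5. It shares 22 exonic bases with AT4G26070 on the opposite strand and whether counting used strand is unstated in the sources. HAB1 (AT1G72770), which acts redundantly with ABI1 in restraining the pathway, stood at 6.91 RPKM in jmj17-1 and 6.12 in WT, from 839 and 882 reads (fold 1.13, 1.03 to 1.24). HAB2 (AT1G17550), the nearest relative of HAB1, stood at 13.6 RPKM in jmj17-1 and 15.6 in WT, from 1554 and 2116 reads (fold 0.872, 0.816 to 0.931). ABI2 (AT5G57050), the closest relative of ABI1, stood at 3.17 RPKM in jmj17-1 and 3.38 in WT, from 307 and 389 reads (fold 0.937, 0.804 to 1.09), an interval that holds equality.

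**Figure D2:**
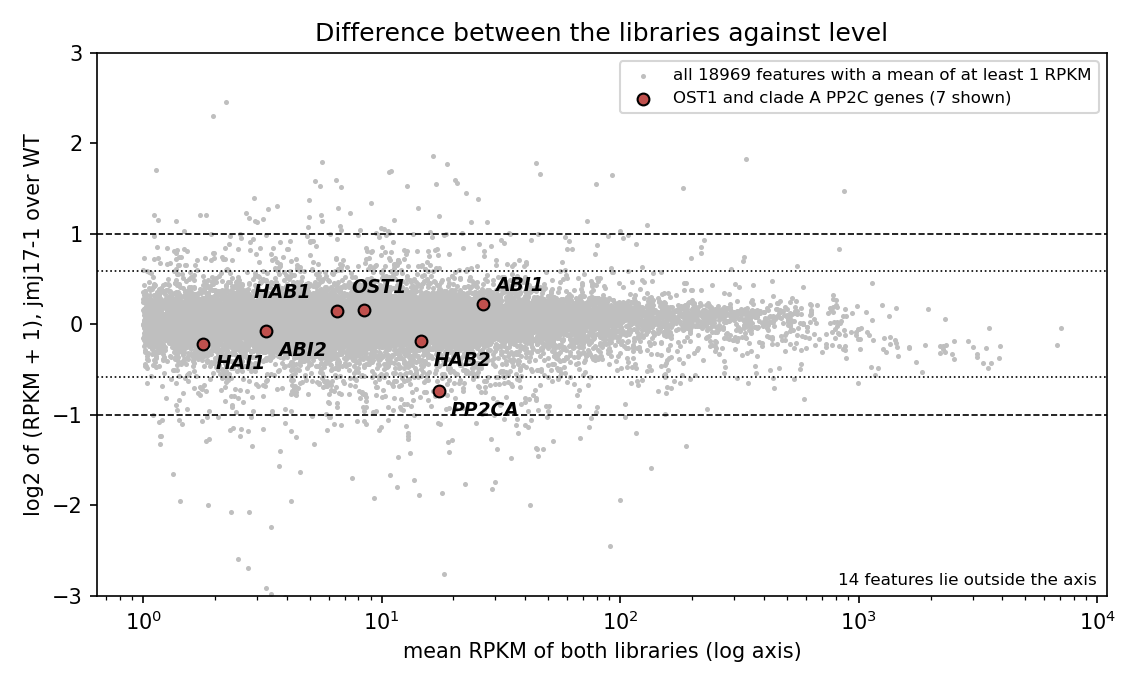
Log2 ratio of (RPKM + 1), jmj17-1 over WT, against the mean RPKM of both libraries on a log axis, for 18969 features in grey and the 7 analysed genes in red. Dashed lines mark 2-fold and dotted lines 1.5-fold, and PP2CA at -0.74 is the 1 red point outside the dotted lines.

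Within the ABI1 and ABI2 pair and the HAB1 and HAB2 pair the log2 ratios lay on opposite sides of 0. HAB1 and HAB2 had the most similar coding sequences of the clade, with 74.6% identical bases, and their log2 ratios were 0.15 and -0.19. ABI1 and ABI2 shared 72.6% of bases, with log2 ratios of 0.23 and -0.07. HAI1 and HAI2, both below 0, shared 62.6%, and the relative nearest to PP2CA was HAI3 with 59.4%. The counting intervals of ABI2, HAI1 and HAI2 held equality, so their sides of 0 are not settled even by counting. None of the 50-base runs in the exons of the 10 genes occurred at another place in the genome, so reads of that length with no mismatch had a single origin. Over all 10 genes 3 log2 ratios were above 0 and 7 below, with a median of -0.09, against a median of 0.04 over all features analysed.

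The order of levels among the 10 genes differed only in that HAB2 and PP2CA changed places. In jmj17-1 the order was ABI1, HAB2, PP2CA, OST1, HAB1, ABI2, HAI1, HAI2, HAI3 and AHG1. In WT PP2CA stood above HAB2, and the order was otherwise that of jmj17-1. The counting intervals of HAB2 (13.0 to 14.3 RPKM) and PP2CA (12 to 13.5 RPKM) overlapped in jmj17-1, whereas in WT PP2CA (21.0 to 22.9 RPKM) lay above HAB2 (15.0 to 16.3 RPKM). Among the 7 genes over 1 RPKM no other neighbours in the order overlapped within a library, and HAI2, HAI3 and AHG1 could not be ordered in either.

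The make-up of the clade A pool differed more than its size. The 9 phosphatase genes summed to 67.1 RPKM in jmj17-1 and 74.1 RPKM in WT. The 4 genes of the ABI1/ABI2/HAB branch summed to 52.5 RPKM in jmj17-1 and 49.6 in WT, while the 5 genes of the HAI/PP2CA/AHG1 branch summed to 14.6 RPKM in jmj17-1 and 24.4 in WT. Most of the second sum was PP2CA alone, at 12.7 RPKM in jmj17-1 and 21.9 in WT. PP2CA made up 19.0% of the clade A sum in jmj17-1 and 29.6% in WT, and ABI1 made up 42.9% in jmj17-1 and 33.1% in WT. Without PP2CA the sum was 54.4 RPKM in jmj17-1 and 52.1 in WT. There were 7.52 units of clade A RPKM per unit of OST1 RPKM in jmj17-1 and 9.38 in WT. In whole seedlings fewer cells that express a gene and less RNA per cell cannot be told apart.

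**Figure D3:**
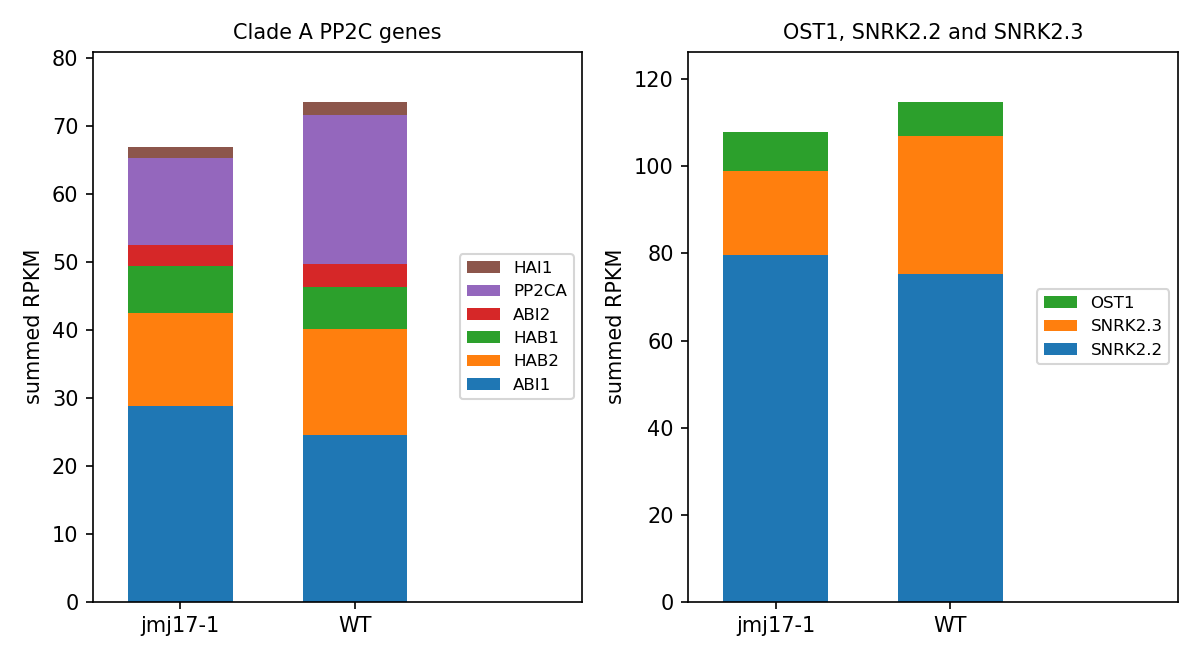
Summed RPKM of clade A phosphatase genes (left) and of OST1, SNRK2.2 and SNRK2.3 (right), jmj17-1 left of WT in each panel, 1 library each; HAI2, HAI3 and AHG1 together add 0.262 RPKM in jmj17-1 and 0.511 in WT and are not drawn. The PP2CA block is 12.7 RPKM tall in jmj17-1 and 21.9 in WT, and the SNRK2.3 block 19.3 in jmj17-1 and 31.7 in WT.

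Of the kinases that work alongside OST1, SNRK2.3 was lower in jmj17-1 and SNRK2.2 was close to equal. SNRK2.3, which acts with SNRK2.2 in ABA control of germination and growth, stood at 19.3 RPKM in jmj17-1 and 31.7 in WT, from 1335 and 2609 reads (fold 0.607, 0.568 to 0.649). Its log2 ratio of -0.69 was past the 1.5-fold limit on the lower side, where 1.93% of all features lay. Its exons share up to 46 bases with genes of the opposite strand. SNRK2.2 stood at 79.6 RPKM in jmj17-1 and 75.2 in WT (fold 1.06, 1.02 to 1.1). OST1 made up 8.28% of the summed level of these 3 kinase genes in jmj17-1 and 6.87% in WT, and SNRK2.3 made up 17.9% in jmj17-1 and 27.6% in WT. Of the 9 SnRK2 genes other than OST1, 7 had a log2 ratio above 0, the side on which most features lay. The median of the 9 was 0.11, against 0.04 over all features analysed. None of the 9 reached 2-fold, which 0.97% of all features passed. SNRK2.7, a member outside the ABA-activated subclass, stood at 2.67 RPKM in jmj17-1 and 3.19 in WT.

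Among the 14 ABA receptor genes 12 were in the table and 9 were analysed. None passed the 2-fold rule, which 0.97% of all features passed. The median log2 ratio was 0.09, with 5 above 0 and 4 below. PYL6 was the receptor gene with the largest difference, at 11.8 RPKM in jmj17-1 and 6.33 in WT (fold 1.86, 1.65 to 2.1), past the 1.5-fold limit in the higher direction, where 1.51% of all features lay. PYL8, a receptor known for its role in roots, stood at 58.6 RPKM in jmj17-1 and 47.8 in WT (fold 1.22, 1.18 to 1.27).

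Genes whose products act on these proteins all stayed within the 1.5-fold limit, as did most features, since only 3.44% of all features lay past it. None of 8 kinases upstream of OST1 reached 1.5-fold, and their median log2 ratio was -0.01. EDR1, a Raf-like kinase, stood at 8.95 RPKM in jmj17-1 and 9.83 in WT, and BAK1, a receptor kinase that phosphorylates OST1, at 20.9 RPKM in jmj17-1 and 19.8 in WT. None of 7 regulators of clade A phosphatase proteins reached 1.5-fold, with a median of 0.06. RGLG1, a ubiquitin ligase that targets PP2CA protein for degradation, stood at 7.03 RPKM in jmj17-1 and 8.93 in WT (fold 0.787, 0.724 to 0.855).

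Downstream of the kinases, none of the 7 ABA transcription factor genes analysed reached 1.5-fold, which 3.44% of all features passed. ABF3 stood at 14.8 RPKM in jmj17-1 and 16.6 in WT, and ABF1 at 27.7 RPKM in jmj17-1 and 25.1 in WT. Of 6 membrane proteins phosphorylated by OST1 or acting with it in guard cells, 5 had a log2 ratio below 0, none reached 1.5-fold, and the median was -0.14. SLAH3, an anion channel, stood at 9.18 RPKM in jmj17-1 and 11.6 in WT (fold 0.793, 0.732 to 0.859). RBOHD, an NADPH oxidase, stood at 12.1 RPKM in jmj17-1 and 15.1 in WT (fold 0.805, 0.758 to 0.855). Of 19 ABA-induced genes 15 were analysed, and 10 of these had a log2 ratio below 0 and 5 above, with a median of -0.06. Over all features analysed the median was 0.04, and most lay above 0. None of these 15 passed the 2-fold rule on the log2(RPKM + 1) scale, and 1, RAB18, passed it by the plain ratio. The genes COR15A, RAB18 and COR15B were past the 1.5-fold limit on the lower side, where 1.93% of all features lay, and KIN1 on the higher side, where 1.51% lay. RAB18, a dehydrin gene widely used as an ABA reporter, stood at 3.96 RPKM in jmj17-1 and 7.96 in WT (fold 0.497, 0.417 to 0.591). COR15A, which encodes a protective chloroplast protein, stood at 11 RPKM in jmj17-1 and 21.4 in WT (fold 0.513, 0.472 to 0.558). COR15B stood at 28.9 RPKM in jmj17-1 and 47.5 in WT, and KIN1 at 34.6 RPKM in jmj17-1 and 19.3 in WT. COR15B, KIN1, RD29A, RD29B, TSPO, RD20 and NAC019 were named after their values were seen. RD29A stood at 46.0 RPKM in jmj17-1 and 32.6 in WT (fold 1.41, 1.36 to 1.47). Below the filter RD29B stood at 0.2004 RPKM in jmj17-1 and 0.912 in WT, from 20 and 108 reads. Its fold had an interval of 0.129 to 0.356. By the plain ratio RD29B was past 2-fold on the lower side, as was TSPO. TSPO rested on 9 and 23 reads (fold 0.464, 0.189 to 1.04). RD20 was lower, from 27 and 44 reads, and NAC019 higher, from 21 and 13, each within counting error. KIN1 has a close copy beside it in KIN2, and the reads of KIN1 did not come out whole, so its value is uncertain.

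The 1 pathway gene past the 2-fold rule breaks down ABA. CYP707A3, a hydroxylase that inactivates the hormone, stood at 1.18 RPKM in jmj17-1 and 4.52 in WT, from 104 and 475 reads. The fold was 0.260 (0.208 to 0.322) and the log2 ratio -1.34, in a direction where 0.58% of all features passed the 2-fold rule. Its relative CYP707A2, named after its value was seen, lay on the other side, at 1.83 RPKM in jmj17-1 and 0.770 in WT, from 164 and 82 reads (fold 2.37, 1.81 to 3.13), with a log2 ratio of 0.68. BGLU18, which releases ABA from its glucose ester and was also named after its value was seen, stood at 46.6 RPKM in jmj17-1 and 73.2 in WT (fold 0.636, 0.614 to 0.659). In ABA synthesis none of the 6 genes analysed reached 1.5-fold on the log2 scale, which 3.44% of all features passed. AAO3, the aldehyde oxidase of the last step, stood at 6.53 RPKM in jmj17-1 and 4.13 in WT (fold 1.58, 1.46 to 1.71), and NCED3, the drought-induced dioxygenase, at 1.42 RPKM in jmj17-1 and 1.98 in WT (fold 0.717, 0.585 to 0.875). In ABA transport all 3 genes analysed had a log2 ratio below 0, with a median of -0.12 against 0.04 over all features analysed. The importer gene NPF4.6 stood at 18.7 RPKM in jmj17-1 and 22.0 in WT, and the exporter gene DTX50 at 2.14 RPKM in jmj17-1 and 2.42 in WT. Over the 76 analysed genes of these 10 lists, 3 (3.95%) lay past the 1.5-fold limit on the higher side and 6 (7.89%) on the lower, against 1.51% and 1.93% of all features analysed. CYP707A2, 1 of the 3, met the filter only through its jmj17-1 level. RD29B, with a log2 ratio of -0.67, was left out by the filter. The lists were chosen with earlier results of these data known, and this difference in shares was not tested.

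**Figure D4:**
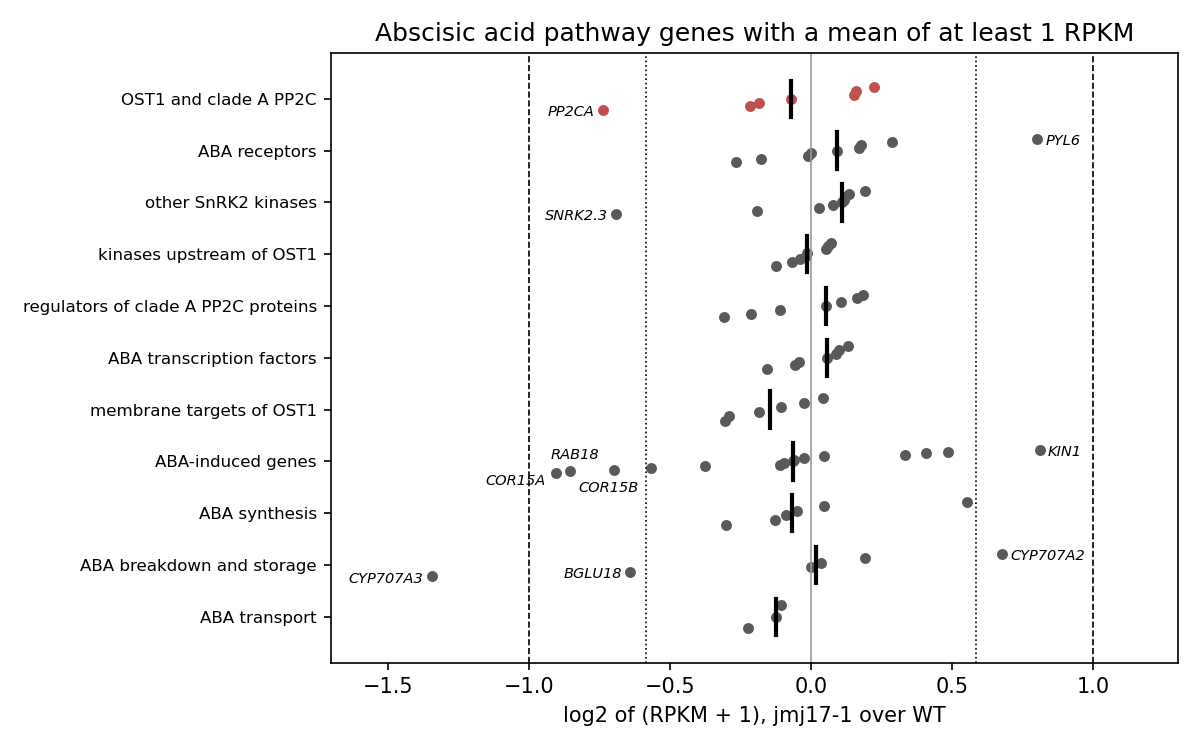
Log2 ratio of (RPKM + 1), jmj17-1 over WT, of each analysed gene in the set of OST1 and clade A phosphatases (red) and in 10 other lists of ABA genes (grey), with black bars at the list medians, dashed lines at 2-fold and dotted lines at 1.5-fold. CYP707A3 at -1.34 is the 1 gene outside the dashed lines, and most genes lie between the dotted lines.

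Other phosphatase genes of the 2C family served as a comparison. Of 57 such genes outside clade A in the table, found by their annotated product, 51 were analysed. Their log2 ratios ran from -0.54 to 0.64 with a median of 0.02. Of all features 3.44% lay past the 1.5-fold limit, and of these 51 genes 1 did. This was AT5G02760, named after its value was seen, at 18.1 RPKM in jmj17-1 and 11.2 in WT. PP2CA at -0.74 lay below these 51 genes on the log2(RPKM + 1) scale. By the plain ratio it did not, since AT5G66080, named after its value was seen, stood at 1.59 RPKM in jmj17-1 and 2.78 in WT (fold 0.572, 0.457 to 0.713), against a fold of 0.581 for PP2CA. Whether clade A differs from them was not tested.

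Of 8 root markers 7 were analysed. Their log2 ratios were all above 0, the side on which most features lay, with a median of 0.10 against 0.04 over all features analysed. WOX5 stood at 2.06 RPKM in jmj17-1 and 0.943 in WT, from 90 and 49 reads, and met the filter only through its jmj17-1 level. PRP3 stood at 19.9 RPKM in jmj17-1 and 14.4 in WT. PLT1, which was below the filter, lay the other way, at 0.499 RPKM in jmj17-1 and 0.626 in WT. The part of root tissue in the differences of OST1 and the phosphatase genes was not tested.

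None of the 10 genes was in the authors' deposited table of 410 genes named for a p of 0.05, which held 1.53% of the 26743 features. Of the pathway and marker genes 6 were in that deposited table of the authors, namely KIN1, COR15B, BGLU18, TGG1, TGG2 and CRU3. For PP2CA the authors' deposited table gave a p-value of 0.119 and for OST1 0.801. That p enters RPKM values as if they were counts out of 1000000, so it takes no account of gene length or of seedling to seedling spread. It also leaves out the real depth of 45403267 reads in jmj17-1 and 53890006 in WT. For PP2CA the reads were 1013 in jmj17-1 and 2069 in WT, so a p of 0.119 does not measure their counting error.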

How the data were processed

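RNA was measured by sequencing in 1 jmj17-1 and 1 WT library of whole seedlings, made with a TruSeq kit per the labels. The authors deposited RPKM values for 26743 features, with a Z score and a p-value for each. Their Z score equals that of 2 proportions out of 1000000 for 26743 rows within 1e-06. Per the submitters' processing notes the genome build was TAIR10. The sources used here name no aligner or counter and do not say whether strand was used.

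Depth was the value of 1 read, found as the most frequent product of RPKM and exonic length among features under 0.05 RPKM, where 446 features in jmj17-1 and 405 in WT stood at exactly 1 read. Each feature's length, between 100 and 16000 bases, was then the one giving whole reads in both libraries within 1e-05. This succeeded for 72.5% of 18952 features above 0 in both libraries with a mean of at least 1 RPKM. Where several multiples fitted, the one nearest the annotated exonic length was taken.

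With 1 library per genotype no test was possible. A size rule of 2-fold and a limit of 1.5-fold on log2(RPKM + 1) were read against all 18969 features with a mean of at least 1 RPKM. All 10 members are named, and of each pathway list the genes past 2-fold or else the 2 largest differences, of which 1 gene is not reported here. COR15B, KIN1, RD29A, RD29B, TSPO, RD20, NAC019, CYP707A2, BGLU18, AT5G02760, AT5G66080, SESA1, SESA4 and PLT1 were added after their values were seen. Members and lists were chosen with earlier results of these data known. Locus identifiers of the lists were matched to RefSeq TAIR10.1. Python 3.11.15, SciPy 1.17.1 and Biopython 1.88 were used, and the scripts were tested on simulated data.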

Additional observations from a re-analysis of the deposited data

How the results depend on the processing

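The processing was varied by the pseudocount (0.1 or 5 RPKM, and none, the last added after seeing the data), the filter (none, or a mean of at least 5 RPKM) and the scaling (centred on the median of all features, rescaled without organelle features, quantile normalization). Among the genes that met the filter, 0 passed 2-fold and 1, PP2CA, passed 1.5-fold under all 8 alternatives. The filter leaves out HAI2, HAI3 and AHG1, which at a pseudocount of 0.1 RPKM stood at -0.46, -0.70 and -0.41, and with none at -0.75, -1.24 and -0.92. HAI3 and AHG1 then lay below PP2CA at -0.78, and HAI3 past 2-fold. Each of the 10 genes kept its sign wherever it had a value. PP2CA ranged from -0.78 to -0.60 and OST1 from 0.11 to 0.18. The log2 ratio of the summed clade A level was -0.14 and ranged from -0.18 to -0.13. The median over the 10 genes moved to -0.26 at a pseudocount of 0.1 RPKM and to -0.27 with none, since the low genes then weigh fully, and to 0.15 over the 5 genes with a mean of at least 5 RPKM. CYP707A3 did not pass 2-fold at a pseudocount of 5 RPKM and was left out by a mean of at least 5 RPKM, while with a pseudocount of 0.1 RPKM or none 2 genes of that list passed. With no pseudocount 1 ABA-induced gene, RAB18, also passed, and 1 root marker passed at 0.1 RPKM and with none. The list medians of ABA breakdown and of guard cell markers lay near 0 and changed sign under 3 alternatives each, that of transcription factors under 1. HAI2, HAI3 and AHG1 are limited by depth, with 4 to 20 reads a library. No paired analysis was possible because there is 1 library per genotype.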
